A study of Sus scrofa with 12 samples.

Results

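Glycogen is the branched glucose store of muscle, and its making and breakdown use separate sets of enzymes. Glycogenin starts a chain on itself, glycogen synthase lengthens it with UDP-glucose and the branching enzyme adds the branch points. Breakdown runs through glycogen phosphorylase, which is switched on by phosphorylase kinase, an enzyme built of a catalytic gamma subunit, regulatory alpha and beta subunits and calmodulin as delta subunit. In pigs, muscle glycogen is known for its bearing on the acidity and water holding of meat after slaughter.

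The genes described here encode enzymes of glycogen metabolism, some of them muscle forms, and were chosen by name from the deposited gene table. Of 9 names, 8 were found among the 23271 listed genes, namely the phosphorylase gene PYGM, the kinase subunit genes PHKA1, PHKB and PHKG1, and the synthesis genes GYG1, GYS1, GBE1 and UGP2. PGM1 was not analysed here. Poly(A) RNA from frozen longissimus dorsi (loin) muscle was sequenced in 6 Laiwu samples (a Chinese pig breed known for fat-rich muscle) and 6 Yorkshire samples (a lean Western breed), described as of equal weight. The labels used here give neither age, sex nor treatment. They do not say whether each library is a different animal, so the p-values cover only the spread between these samples, which may be technical. The question addressed is whether the muscle of the breeds differs in the level of these genes. Levels are in FPKM, which scales fragments by gene length and by the total of the library.

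Between 54961358 and 67285809 counts were assigned to genes per library. Markers of fast fibres, the glycolytic fibre type of this muscle, were detected in every library (14 of 14 genes). Their summed level was 45465 to 53613 FPKM in Laiwu and 43396 to 55900 FPKM in Yorkshire. The fast myosin gene MYH1 was at 2748 to 7985 FPKM in Laiwu and 2127 to 6918 FPKM in Yorkshire. MYH4, another of these markers, was at 4826.5 to 10791 FPKM in Laiwu and 4767.6 to 8717 FPKM in Yorkshire. It was highest in Laiwu 5, where MYH1 was the lowest of Laiwu. Yorkshire 5 stood apart in gene length, with longer genes lower: Spearman's rho between gene length and its deviation from the mean of the 12 libraries was -0.43 across genes, against -0.11 to 0.18 for the other libraries. In whole muscle, fewer fibres of a type and less RNA per fibre cannot be told apart.

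None of the 8 glycogen genes passed edgeR's quasi-likelihood test of Laiwu against Yorkshire over all tested genes. The fitted log2 fold changes were 0.33 for PHKA1, 0.30 for PHKB and 0.26 for UGP2, and -0.18 for PHKG1. Their order depended on the libraries, since without Yorkshire 5 UGP2 was at 0.27, PHKA1 at 0.21 and PHKB at 0.20. The ratio of the catalytic subunit gene PHKG1 to the regulatory subunit gene PHKB was lower in each of the 6 Laiwu libraries than in any Yorkshire library, by a narrow gap (at most 0.354 against at least 0.356), as it was for 0.189% of tested genes set against PHKB. Its exact permutation test did not pass after adjustment without Yorkshire 5 (log2 difference -0.38, adjusted p = 0.0693), although the remaining libraries still did not overlap. The fitted log2 fold changes of PYGM, GYS1 and GYG1 were -0.025, -0.021 and 0.016.

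Across all 12 libraries PYGM was by far the most abundant of the 8, and the branching enzyme gene GBE1 the least. PYGM averaged 4694 FPKM over the 12 libraries, 25.6 times the mean of PHKA1, and took 1.14% to 1.85% of all counts of a library. PHKA1 followed at a mean of 183.7 FPKM, then GYG1 at 136.2 FPKM, PHKB at 114.3 FPKM, GYS1 at 77.4 FPKM, UGP2 at 44.9 FPKM, PHKG1 at 39.3 FPKM and GBE1 at 3.88 FPKM. The order held throughout at 3 steps, with PYGM above PHKA1, GYS1 above UGP2 and PHKG1 above GBE1 in 12 of 12 libraries. Neighbours changed places elsewhere: PHKA1 stood above GYG1 in 10 libraries, GYG1 above PHKB in 8, PHKB above GYS1 in 9 and UGP2 above PHKG1 in 9. The lowest count behind any of these values was 1004, for GBE1.

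**Figure D1:**
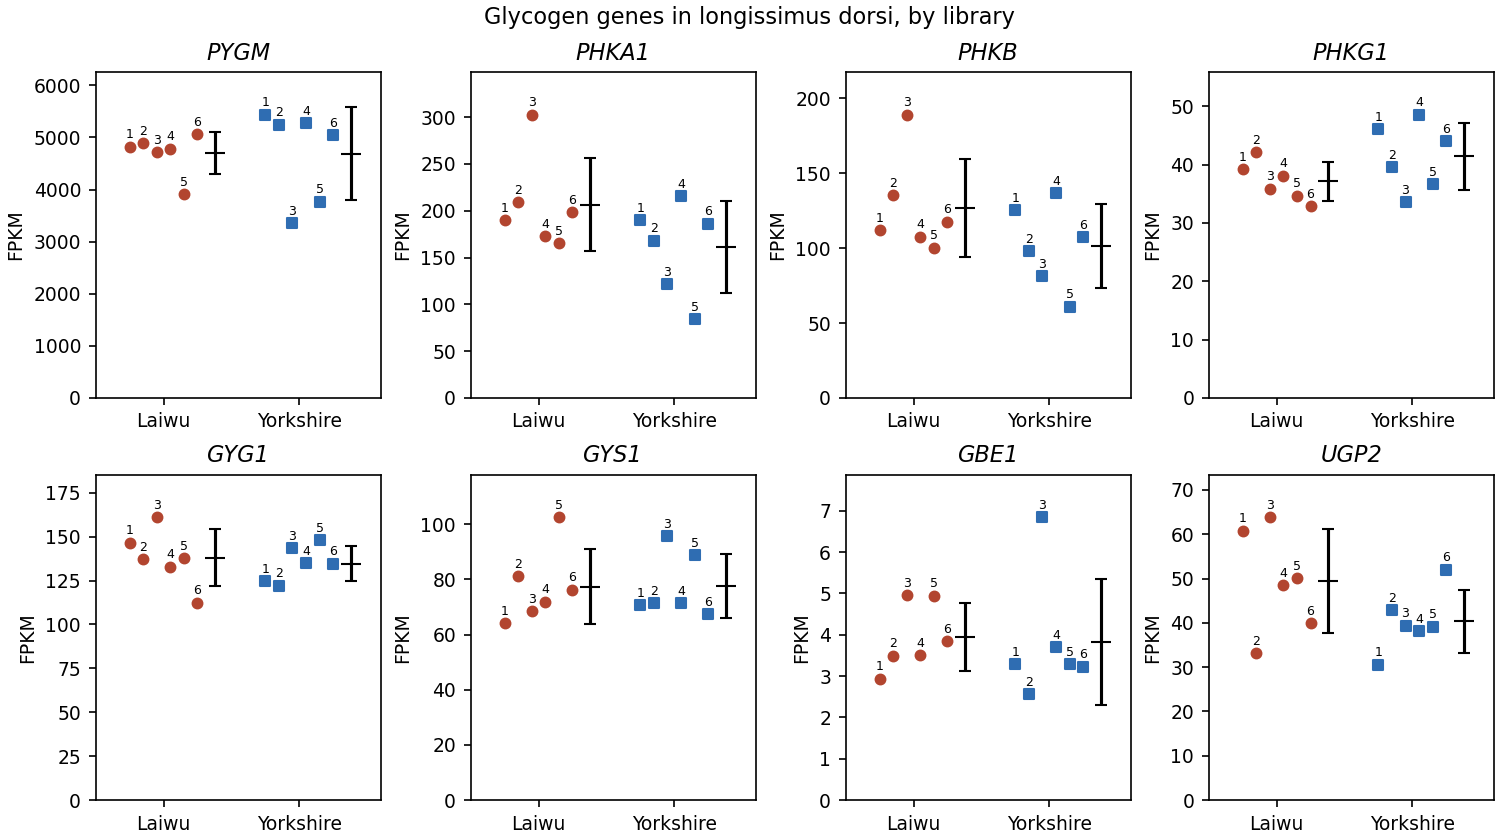
FPKM of each gene (vertical axes from 0) in the 6 Laiwu and 6 Yorkshire libraries, labelled with their replicate numbers; the bars give mean ± SD (n = 6). The breeds overlap for all 8 genes, Laiwu 3 is high for PHKA1 and PHKB, and Yorkshire 3 and Yorkshire 5 are low for PYGM, PHKA1 and PHKB.

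PYGM, which encodes the muscle phosphorylase that releases glucose 1-phosphate from glycogen (ENSSSCG00000013022; Sscrofa11.1 chromosome 2, 7409116 to 7421254), was at a lowest, median and highest value of 3910, 4803 and 5066 FPKM in Laiwu and 3353, 5148 and 5436 FPKM in Yorkshire. The Laiwu libraries lay close together except Laiwu 5, which was low. Of the Yorkshire libraries, Yorkshire 3 and Yorkshire 5 were low and the other 4, at 5050 FPKM or more, were close together. Laiwu averaged 4699 ± 404.4 FPKM and Yorkshire 4688 ± 892.4 FPKM (SD, 6 libraries per breed). edgeR fitted a log2 fold change of -0.025 ± 0.15 (SE) with an adjusted p of 0.985.

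PHKA1 encodes the muscle form of the alpha subunit of phosphorylase kinase, a regulatory subunit (ENSSSCG00000012411; chromosome X, 58455939 to 58583216). It was at a lowest, median and highest value of 165.1, 194.2 and 302.6 FPKM in Laiwu and 84.3, 177.2 and 215.7 FPKM in Yorkshire. Laiwu 3 was high, Yorkshire 5 and Yorkshire 3 were low, and the breeds overlapped among the other 9 libraries. edgeR fitted a log2 fold change of 0.33 ± 0.21 (SE, adjusted p = 0.912). Leaving out Laiwu 3 gave 0.20, and leaving out Yorkshire 5 gave 0.21.

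PHKB encodes the beta subunit, also regulatory and shared by muscle and liver (ENSSSCG00000002844; chromosome 6, 36991274 to 37193593). Its lowest, median and highest values were 100.4, 114.8 and 189.1 FPKM in Laiwu and 61.0, 102.7 and 136.5 FPKM in Yorkshire. Again Laiwu 3 was high and Yorkshire 5 and Yorkshire 3 low. The fitted log2 fold change was 0.30 ± 0.19 (SE), at an edgeR adjusted p of 0.912. Leaving out Laiwu 3 gave 0.16, and leaving out Yorkshire 5 gave 0.20.

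PHKG1 encodes the muscle form of the catalytic gamma subunit, which carries the kinase activity (ENSSSCG00000007744; chromosome 3, 16822043 to 16834329). Its lowest, median and highest values were 32.9, 37.0 and 42.1 FPKM in Laiwu and 33.6, 41.8 and 48.5 FPKM in Yorkshire. Only 1 of the 6 Laiwu libraries lay above the Yorkshire median, but 3 Yorkshire libraries (2, 3 and 5) lay within the Laiwu range. PHKG1 had a fitted log2 fold change of -0.18 ± 0.12 (SE, edgeR adjusted p = 0.912), which ran from -0.26 without Yorkshire 3 to -0.14 without Laiwu 6. SUMF2 overlaps PHKG1 on the opposite strand, at a mean of 0.444 FPKM. The kit marks strand, but its use in counting is not stated, so reads of PHKG1 and SUMF2 in the overlap may not have been told apart.

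Among the synthesis genes, UGP2 had the highest fitted difference and the other 3 lay near 0. GYG1 encodes glycogenin, the primer of the chain (ENSSSCG00000011698; chromosome 13, 89221157 to 89259792), and averaged 138.0 ± 16.1 FPKM over the Laiwu and 134.5 ± 10.1 FPKM over the Yorkshire libraries (SD, n = 6). Its lowest, median and highest values were 112.4, 137.4 and 161.1 FPKM in Laiwu and 122.0, 134.7 and 147.9 FPKM in Yorkshire, so that the Yorkshire libraries lay inside the Laiwu range. For GYG1 the fitted log2 fold change was 0.016 ± 0.10 (SE, edgeR adjusted p = 0.987).

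GYS1, the muscle glycogen synthase gene (ENSSSCG00000003154; chromosome 6, 54233050 to 54250260), was at a lowest, median and highest value of 64.0, 74.0 and 102.6 FPKM in Laiwu and 67.4, 71.3 and 95.6 FPKM in Yorkshire. The high libraries were Laiwu 5, Yorkshire 3 and Yorkshire 5, the same 3 in which PYGM was lowest. For GYS1 the fitted log2 fold change was -0.021 ± 0.13 (SE, edgeR adjusted p = 0.984).

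GBE1, the branching enzyme gene (ENSSSCG00000012000; chromosome 13, 173634454 to 173914756), was at a lowest, median and highest value of 2.94, 3.67 and 4.96 FPKM in Laiwu and 2.57, 3.29 and 6.85 FPKM in Yorkshire. Yorkshire 3 was the highest of all 12 libraries, and the other 5 of Yorkshire lay between 2.57 and 3.69 FPKM. GBE1 had a fitted log2 fold change of 0.047 ± 0.18 (SE, edgeR adjusted p = 0.978), and of 0.24 when Yorkshire 3 was left out. A gene with no symbol overlaps GBE1 on the same strand, at a mean of 0.0029 FPKM.

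UGP2 encodes the enzyme that makes UDP-glucose, the glucose donor of glycogen synthase (ENSSSCG00000008368; chromosome 3, 77975441 to 78031154). Its lowest, median and highest values were 33.1, 49.3 and 63.9 FPKM in Laiwu and 30.6, 39.2 and 52.0 FPKM in Yorkshire. In Laiwu, 2 libraries (Laiwu 1 and Laiwu 3) lay above every Yorkshire library, and 5 of 6 lay above the Yorkshire median. UGP2 had a fitted log2 fold change of 0.26 ± 0.18 (SE, edgeR adjusted p = 0.912), which ran from 0.18 without Laiwu 1 to 0.37 without Yorkshire 6.

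With Benjamini-Hochberg adjustment, the edgeR test called 0 of the 8 genes, against 0% of all 11205 tested genes. At an unadjusted p under 0.05 it took 0 of the 8, against 4.44% of all tested genes (2.14% higher and 2.3% lower in Laiwu). The breeds did not overlap in FPKM for 0 of the 8, against 0.178% of all tested genes. limma on log2(FPKM + 1) also called 0 of the 8 and 0 of all tested genes, and DESeq2 called 0 of the 8 and 1 of all tested genes. Of the 8 log2 fold changes, 5 were above 0 and 3 below, with a median of 0.031, against 5573 above and 5632 below and a median of -0.0013 over all tested genes. The signs of PYGM, GYS1, GYG1 and GBE1 changed when single libraries were left out.

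**Figure D2:**
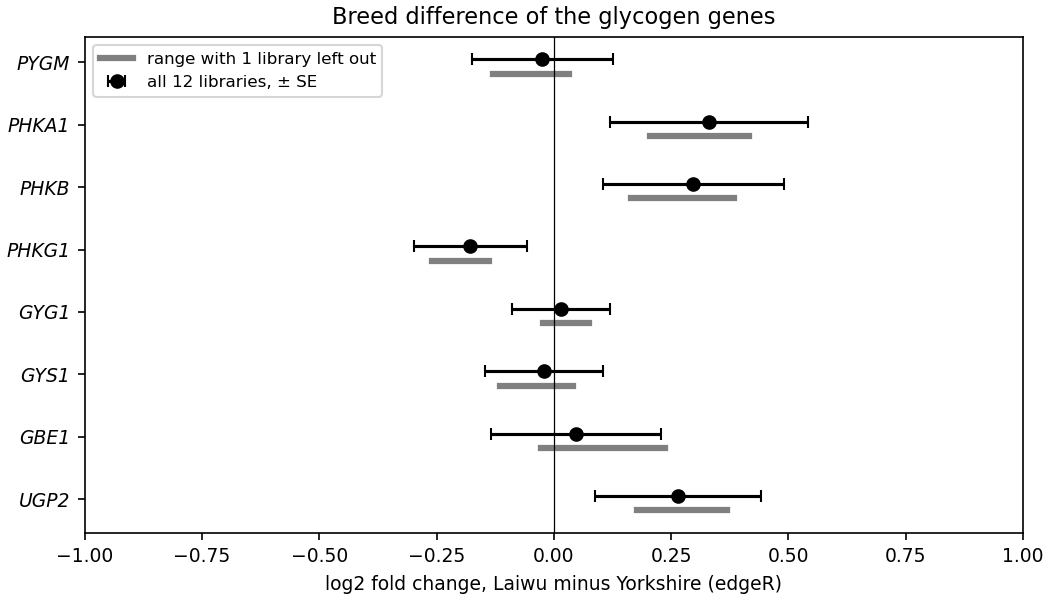
log2 fold change, Laiwu minus Yorkshire, of each gene by edgeR (points, with bars for ± SE) and its range when each of the 12 libraries was left out in turn (grey lines). PHKA1, PHKB and UGP2 stay above 0 and PHKG1 below 0 along the grey lines, while those of PYGM, GYG1, GYS1 and GBE1 cross 0.

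PHKA1 and PHKB varied together from library to library within each breed, a relation that was computed after the data were seen. In Laiwu the correlation of log2 FPKM was r = 0.99 (exact permutation of pairings, two-sided p = 0.00139, 0.0389 adjusted over 56 relations, n = 6) with rho = 1 (exact p = 0.00278, adjusted 0.0778). In Yorkshire it was r = 0.98 (exact p = 0.00139, adjusted 0.0389, n = 6) with rho = 1 (exact p = 0.00278, adjusted 0.0778). Without the 2 libraries farthest from the median of PHKA1, r was 0.90 in Laiwu and 0.93 in Yorkshire. The 56 relations are the 28 pairs of the 8 genes in each breed, and the other 54 did not pass. On log2 CPM in place of log2 FPKM, r was 0.99 in Laiwu and 0.98 in Yorkshire, and its adjusted exact p was 0.0583 in both breeds. On log2 FPKM without Laiwu 3, r in Laiwu was 0.94 (exact permutation p = 0.0167, adjusted 0.233). Without Yorkshire 5, r in Yorkshire was 0.95 (exact permutation p = 0.00833, adjusted 0.156). With 5 libraries left in a breed, the exact p has too few arrangements to pass readily over 56 relations. These 2 adjusted p therefore cannot show whether the relation rests on the libraries left out. Both genes are long, with lengths implied by count and FPKM of 7232 bases for PHKA1 and 7445 bases for PHKB. PHKG1 had 5230 bases and PYGM 3403 bases. GBE1 was nearly as long, at 6941.5 bases. Its r with PHKA1 was 0.35 in Laiwu and -0.27 in Yorkshire, and with PHKB 0.36 and -0.20. The correlation of PHKA1 and PHKB is set beside these lengths only as a description. The part of gene length in this relation was not tested.

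**Figure D3:**
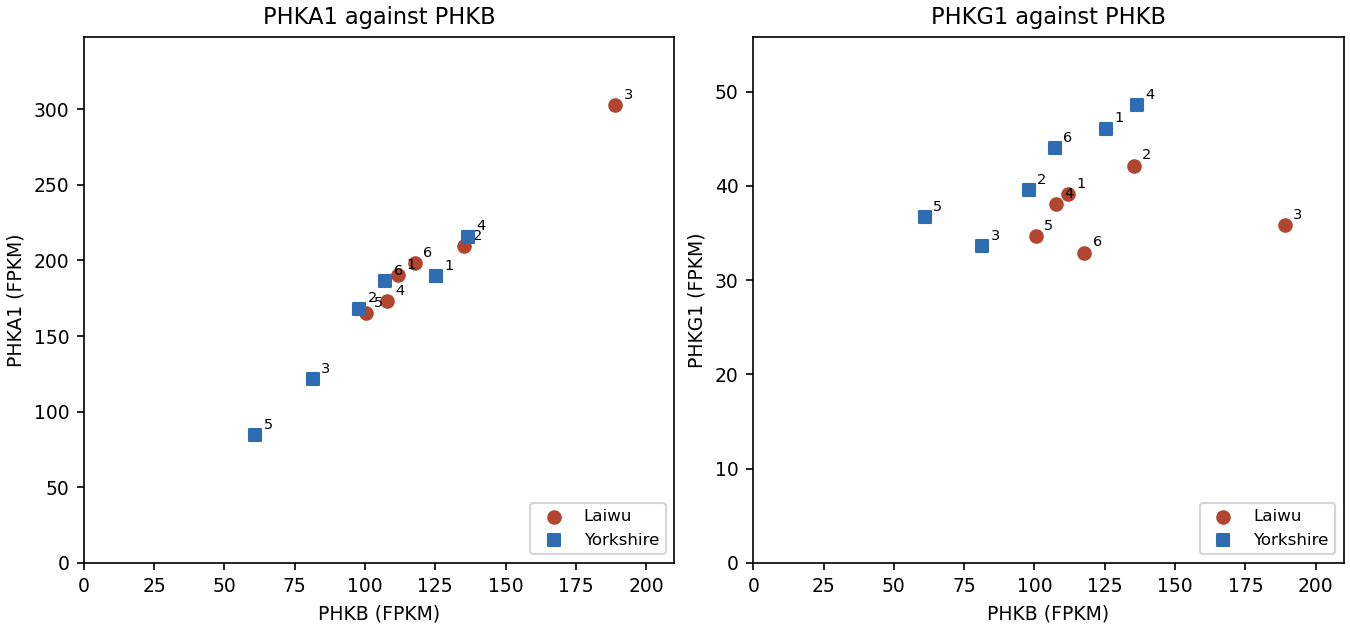
FPKM of PHKA1 (left) and PHKG1 (right) against FPKM of PHKB, all axes from 0, with 1 point per library labelled by replicate number. PHKA1 follows PHKB along a single line from Yorkshire 5 to Laiwu 3 in both breeds, whereas the Yorkshire points lie above the Laiwu points for PHKG1 at a given PHKB level.

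The ratio of PHKA1 to PHKB in FPKM was accordingly narrow, at 1.63 ± 0.0568 over the Laiwu and 1.57 ± 0.137 over the Yorkshire libraries (SD, n = 6). It spanned 1.26-fold over the 12 libraries, whereas PHKA1 itself spanned 3.59-fold and PHKB 3.10-fold. Laiwu and Yorkshire differed by 0.059 on the log2 scale (exact permutation test over libraries, two-sided p = 0.325, adjusted 0.649 over 4 ratios).

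The ratio of PHKG1 to PHKB separated the breeds. It was at a lowest, median and highest value of 0.190, 0.329 and 0.354 in Laiwu and 0.356, 0.407 and 0.601 in Yorkshire. The breeds did not overlap, but only a narrow gap parted Laiwu 4, at 0.354, from Yorkshire 4, at 0.356. Laiwu averaged 0.305 ± 0.0633 and Yorkshire 0.425 ± 0.0895 (SD, n = 6), a log2 difference of -0.49. An exact permutation test over libraries, two-sided, gave p = 0.00216, the smallest that 6 against 6 libraries allow, and 0.00866 after adjustment over 4 ratios. Without Yorkshire 5, the library that stood apart in gene length, the log2 difference was -0.38 and the adjusted exact p 0.0693, so the call was lost. The breeds still did not overlap then, by the same narrow gap between Laiwu 4 and Yorkshire 4. Without Laiwu 3, the library with the lowest ratio, the log2 difference was smaller still, at -0.36, and the adjusted exact p was 0.0433. The part of gene length in this ratio was not tested. Of 11117 tested genes set against PHKB in the same way, 0.189% (21) had a ratio to PHKB that did not overlap and was lower in Laiwu. Counted in either direction the number was also 21, so no such ratio was higher in Laiwu. All of these ratios share PHKB. Of the 28 pairs of the 8 genes, 2 had ratios that did not overlap, those of PHKG1 with PHKB and with PHKA1, which share PHKG1 and are not separate evidence. PHKG1 and PHKB taken alone overlapped between the breeds.

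The other ratios did not pass. GYS1 over PYGM, synthase against phosphorylase, was at a lowest, median and highest value of 0.0133, 0.0150 and 0.0262 in Laiwu and 0.0130, 0.0136 and 0.0285 in Yorkshire (log2 difference -0.030, exact permutation p = 0.970, adjusted 0.970). It was high in Laiwu 5, Yorkshire 3 and Yorkshire 5 and lay between 0.0130 and 0.0166 in the other 9 libraries. GBE1 over GYS1 was at 0.0431, 0.0485 and 0.0725 in Laiwu and 0.0360, 0.0473 and 0.0716 in Yorkshire (log2 difference 0.10, exact permutation p = 0.580, adjusted 0.773), with Laiwu 3 and Yorkshire 3 high.

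**Figure D4:**
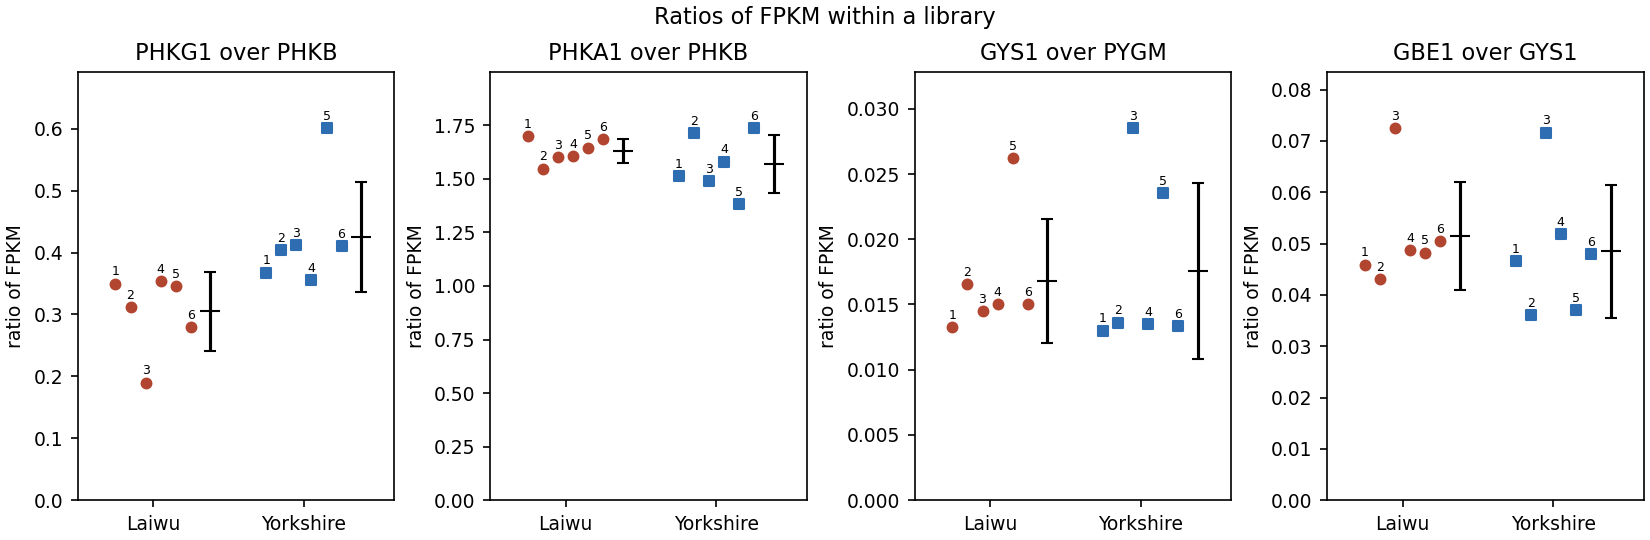
Ratios of FPKM within a library (vertical axes from 0) in Laiwu and Yorkshire, with replicate numbers and bars for mean ± SD (n = 6). The PHKG1 over PHKB ratios of Laiwu, up to 0.354, lie below those of Yorkshire, from 0.356, and the other 3 ratios overlap.

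The 8 genes differed in how much they varied within a breed. The within-breed SD of log2 CPM was 0.42 for PHKA1 and 0.37 for PHKB, against a median of 0.28 over all 11205 tested genes. It was 0.34 for UGP2, 0.33 for GBE1, 0.27 for PYGM, 0.21 for PHKG1 and GYS1, and 0.16 for GYG1. Of all tested genes, 74.4% had a lower SD than PHKA1 and 67.4% a lower SD than PHKB.

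Glycogen enzymes are known to differ between fibre types, so the genes were set against slow fibre markers. The slow fibre score, the mean over 14 markers of log2(FPKM + 1) centred per gene, was lowest in Laiwu 1 (-1.24) and highest in Laiwu 5 (0.37) among Laiwu, and lowest in Yorkshire 2 (-0.46) and highest in Yorkshire 5 (0.74) among Yorkshire. The summed level of these markers was 1085 to 4277 FPKM in Laiwu and 2133 to 5575 FPKM in Yorkshire. None of the 16 relations of a gene to the score within a breed passed an adjusted p of 0.05 for r by exact permutation. The smallest p was that of GYG1 in Yorkshire, with r = 0.87 (exact permutation p = 0.0208, adjusted 0.333, n = 6) and rho = 0.94 (exact p = 0.0167, adjusted 0.133), and r was 0.58 without Yorkshire 2 and Yorkshire 5. GYS1 in Laiwu had r = 0.73 (exact permutation p = 0.0833, adjusted 0.467, n = 6) and rho = 0.94 (exact p = 0.0167, adjusted 0.133), and r was 0.88 without Laiwu 1 and Laiwu 4. The summed level of 8 adipocyte markers was 104.6 to 267.5 FPKM in Laiwu and 100.7 to 155.8 FPKM in Yorkshire. It was highest in Laiwu 3, the library in which PHKA1, PHKB, UGP2 and GYG1 were highest too. Laiwu 6 came next at 255.3 FPKM, but its GYG1, at 112.4 FPKM, was the lowest of all 12 libraries. UGP2 was at 39.9 FPKM in Laiwu 6, PHKA1 at 198.3 FPKM and PHKB at 117.7 FPKM. The part of fat cells in these values was not tested.

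Other enzymes of the pathway and the isoforms of other tissues were not called either. Of the 15 tested of 18 in the table, 0 passed, 6 had a log2 fold change above 0 and 9 below, and the median was -0.023. The liver phosphorylase gene PYGL averaged 1.63 ± 0.457 FPKM (Laiwu) and 1.44 ± 0.302 FPKM (Yorkshire; SD, n = 6), and the brain form PYGB was at 0.0159 to 0.150 FPKM in Laiwu libraries and 0.0541 to 0.145 FPKM in Yorkshire libraries, far below PYGM. The liver kinase subunit genes were also low, with PHKA2 at 0.374 ± 0.182 FPKM (Laiwu) and 0.358 ± 0.0816 FPKM (Yorkshire), and PHKG2 at 1.28 ± 0.345 FPKM (Laiwu) and 1.74 ± 0.612 FPKM (Yorkshire). CALM2 and CALM3, calmodulin genes that supply the delta subunit among many other uses, were far higher. CALM2 averaged 93.9 ± 15.01 FPKM (Laiwu) and 106.6 ± 26.4 FPKM (Yorkshire), and CALM3 120.5 ± 13.6 FPKM (Laiwu) and 128.8 ± 12.4 FPKM (Yorkshire). EPM2A, the glycogen phosphatase laforin, averaged 15.6 ± 2.50 FPKM (Laiwu) and 13.5 ± 1.44 FPKM (Yorkshire). HK2, the hexokinase of insulin-sensitive tissue, averaged 9.51 ± 2.50 FPKM (Laiwu) and 12.02 ± 3.12 FPKM (Yorkshire).

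Regulators of glycogen metabolism gave 0 passing genes of 24 tested, with 13 above 0, 11 below and a median log2 fold change of 0.037. PPP1R3A, which brings protein phosphatase to glycogen in muscle, averaged 159.6 ± 22.5 FPKM over the Laiwu and 125.2 ± 30.5 FPKM over the Yorkshire libraries (SD, n = 6). Its log2 fold change was 0.32 ± 0.17 (SE). PPP1R3C, another such targeting subunit, averaged 42.8 ± 28.7 FPKM in Laiwu, where 1 library (Laiwu 4) reached 100.2 FPKM, and 48.8 ± 15.1 FPKM in Yorkshire. Without Laiwu 4, its log2 fold change of -0.19 ± 0.35 (SE) was -0.65, at an edgeR adjusted p of 0.943. PPP1R1A, an inhibitor of protein phosphatase, averaged 256.1 ± 45.4 FPKM (Laiwu) and 348.0 ± 120.2 FPKM (Yorkshire), where Yorkshire 5 reached 579.8 FPKM. Without Yorkshire 5, its log2 fold change of -0.47 ± 0.20 (SE) was -0.23. PRKAG3, the muscle gamma subunit of AMP-activated kinase known in pigs for its bearing on glycogen content, averaged 34.05 ± 8.69 FPKM (Laiwu) and 35.5 ± 8.54 FPKM (Yorkshire). GSK3B, a kinase of glycogen synthase, averaged 5.82 ± 1.09 FPKM (Laiwu) and 6.50 ± 2.05 FPKM (Yorkshire). SLC2A4, the insulin-responsive glucose transporter, averaged 45.3 ± 11.04 FPKM (Laiwu) and 45.95 ± 6.33 FPKM (Yorkshire).

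At an unadjusted p under 0.05, 2 of these 39 pathway genes were higher in Laiwu, against 2.14% of all tested genes, and 1 was lower, against 2.3%. They are GYG2 and PPP1R3E, named after their values were seen, and PPP1R1A. GYG2, the liver glycogenin gene, averaged 0.917 ± 0.369 FPKM (Laiwu) and 0.587 ± 0.173 FPKM (Yorkshire), and its log2 fold change of 0.62 ± 0.27 (SE) was 0.26 by limma on log2(FPKM + 1) and 0.51 by limma on log2(FPKM + 0.1). PPP1R3E, a phosphatase targeting subunit, averaged 1.42 ± 0.422 FPKM (Laiwu) and 0.960 ± 0.263 FPKM (Yorkshire), and its log2 fold change of 0.55 ± 0.22 (SE) was 0.30 and 0.50 with these pseudocounts of 1 and 0.1. At such levels a pseudocount of 1 understates a fold change. Each of the 3 had an edgeR adjusted p of 0.912, and GYG2 lay near the minimum mean of 0.5 FPKM for testing. GYS2, a synthase isoform gene also named after its values were seen, lay below that minimum and was not tested. It averaged 0.448 ± 0.327 FPKM (Laiwu) and 0.125 ± 0.0636 FPKM (Yorkshire). Its log2 fold change was 1.796 with no minimum (edgeR adjusted p = 0.499) and 1.795 with edgeR's own low-count filter (edgeR adjusted p = 0.974).

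**Figure D5:**
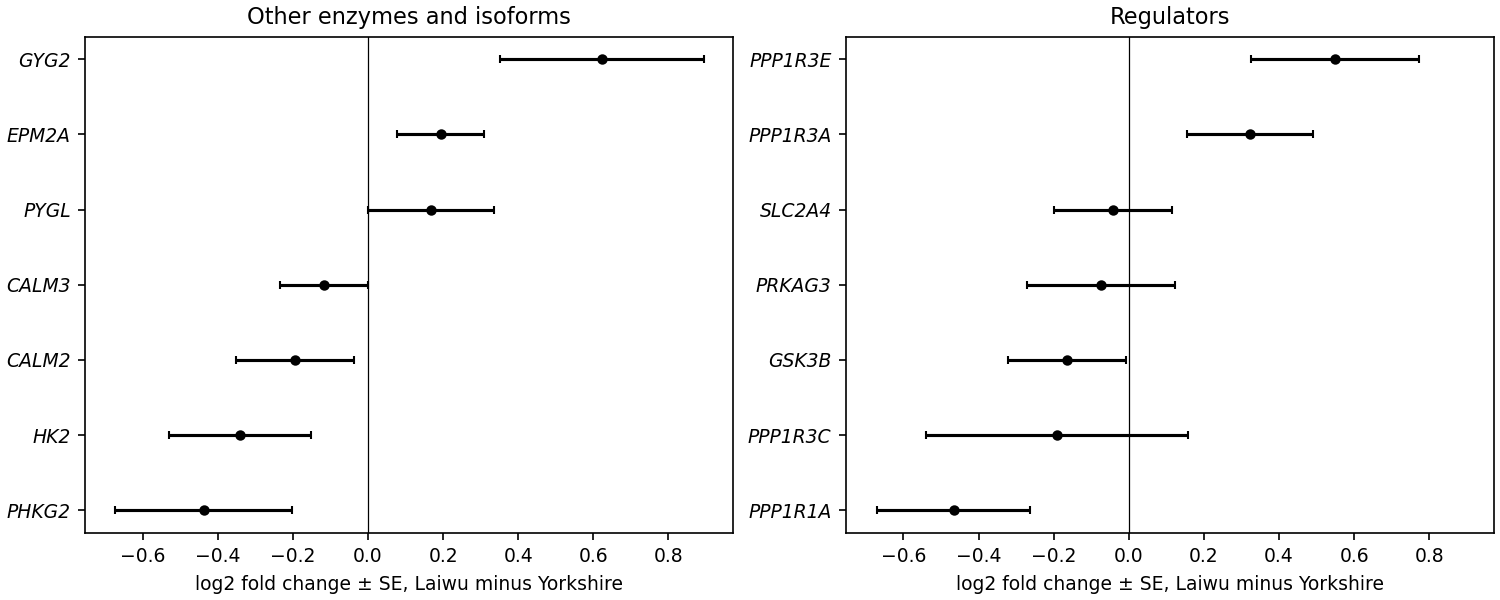
log2 fold change, Laiwu minus Yorkshire, with ± SE by edgeR (horizontal axes) of the 7 tested other enzymes and isoforms (left) and the 7 tested regulators (right) that the text names, sorted by value. Values run from -0.47 for PPP1R1A to 0.62 for GYG2, and 0 of these genes passed an adjusted p of 0.05.

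The genes whose level followed PYGM most closely over the 12 libraries, after each breed mean was removed, were ELMOD3 (Pearson r = 0.97 of log2 CPM), MYLK2, the kinase of myosin light chain in skeletal muscle (r = 0.96), and RNF130 (r = 0.95), out of 4248 genes that carry a symbol and average at least 5 FPKM. For PHKG1 they were MYADML2 (r = 0.94), FAM174A (r = 0.92) and PCMT1, a protein repair methyltransferase (r = 0.91). For UGP2 they were NTN4, a netrin (r = 0.91), TXNIP, an inhibitor of thioredoxin and of glucose uptake (r = 0.91), and CPT1B, the muscle carnitine palmitoyltransferase (r = 0.90). These values describe 12 libraries that share depth and handling, and none of the 3 lists holds a glycogen gene.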

How the data were processed

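Each of the 12 libraries has a column of counts and a column of FPKM in the table the authors deposited, named so per the file headers. The deposited counts are whole numbers. Per the series' design text, FastQC served to filter reads and HISAT2 2.2.1 to align them to Sscrofa11.1. The submitters' processing notes list cutadapt 1.9, StringTie 1.3.4d, edgeR and DESeq2 too, with no step assigned. Neither the annotation release nor the use of strand in counting is stated in those sources.

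The genes and gene lists were chosen with earlier results of these data known. The 11205 genes averaging 0.5 FPKM or more were tested by edgeR 4.0.16 (quasi-likelihood, TMM, robust; tested on simulated data), with no covariate, Laiwu minus Yorkshire, Benjamini-Hochberg adjustment and a call at an adjusted p under 0.05. The SE is the fold change over the root of its F statistic. limma 3.58.1, DESeq2 1.42.0 and R 4.3.3 served the alternatives, and Python 3.11.15 the exact permutation tests of ratios and relations. The floor of a gene with no count was 3 counts per library (0.0446 to 0.0546 CPM), which covers counting error only. All 8 genes were named, and for the other pathway genes a fixed panel and any gene past the threshold; STBD1 and PPP1R2 were not analysed here, and some genes of the panel are not reported here. Of 8541 unnamed IDs, 130 (PPP1R1A among them) took a symbol from a separate table. Correlations and ratios over all pairs of the 8 genes, and their alternatives, were added after the data were seen.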

Additional observations from a re-analysis of the deposited data

Results flagged for a closer look

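In 6 of 24 groups of 6 libraries checked (8 genes and 4 ratios in each breed), 1 library lay far from the others, where chance gives about 1 in 20 groups. PYGM was at 3910 FPKM in Laiwu 5, and the nearest Laiwu library was Laiwu 3 at 4717 FPKM. PHKA1 was at 302.6 FPKM in Laiwu 3, and the nearest was Laiwu 2 at 209.4 FPKM. GBE1 was at 6.85 FPKM in Yorkshire 3, and the nearest was Yorkshire 4 at 3.69 FPKM. The GYS1 over PYGM ratio was 0.0262 in Laiwu 5 against 0.0166 in Laiwu 2, and the GBE1 over GYS1 ratio was 0.0725 in Laiwu 3 against 0.0504 in Laiwu 6. The PHKG1 over PHKB ratio was 0.601 in Yorkshire 5 against 0.412 in Yorkshire 3. These flags are not independent, since the ratios share genes with the single values and some genes, such as PHKA1 and PHKB, varied together. The number of flags is therefore no measure of an excess over chance.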

How the results depend on the processing

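The count of genes called between the breeds was 0 in the fit reported and under each alternative but DESeq2, which called 1, and the number at an unadjusted p under 0.05 ran from 284 without Laiwu 3 (293 without Yorkshire 5) to 656 without Yorkshire 2, against 498. It was 1715 of 23271 genes with no minimum and 198 of 4652 with a minimum of 5 FPKM. Replicate numbers gave no sign of pairing. Deviations of same-numbered libraries correlated at -0.27 to 0.33, and 2 of 12 libraries correlated best with their own number. The labels do not say whether same-numbered samples were collected or handled together. With the replicate block 0 genes were called, 433 were at an unadjusted p under 0.05 and the log2 fold change of PYGM was 0.0014. That of PYGM also turned sign by limma on log2(FPKM + 1) and on log2(FPKM + 0.1), to 0.023 in each, and ran from -0.13 to 0.032 with 1 library left out. That of GYS1 was 0.0024 with a minimum of 5 FPKM and 0.040 by voom with quality weights, and ran from -0.11 to 0.041 with 1 library left out. With 1 library left out, GYG1 ran from -0.023 to 0.075, GBE1 from -0.028 to 0.24, and the log2 difference of GYS1 over PYGM from -0.17 to 0.13. That of PHKG1 over PHKB ran from -0.54 to -0.36 and lost its call without Yorkshire 5. By voom with quality weights PHKA1 was at 0.16 and PHKB at 0.12. GBE1 lies under 5 FPKM and has no value with that minimum. The causes were not tested. PHKA1, PHKB, PHKG1 and UGP2 kept their sign under every alternative run.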

Other observations

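CRYAB, which encodes a small heat shock protein, was named after its values were seen, and it is 1 of the 14 slow fibre markers. It was at 1100 FPKM in Laiwu 5, 1398 FPKM in Yorkshire 3 and 1720 FPKM in Yorkshire 5, and between 212.8 and 402.7 FPKM in the other 9 libraries. The same 3 libraries had the lowest PYGM, the highest GYS1 and the highest ratio of GYS1 to PYGM, from 0.0236 to 0.0285 against at most 0.0166 in the other 9. PDK4, which inhibits pyruvate dehydrogenase, was at 115.0, 100.9 and 64.6 FPKM in Laiwu 5, Yorkshire 3 and Yorkshire 5, but also at 155.7 FPKM in Laiwu 3, 96.3 FPKM in Laiwu 1 and 83.1 FPKM in Yorkshire 6.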
